A study of Mus musculus with 12 samples.

Results

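The binding of 5 proteins was compared at 7 genes of skeletal muscle: Myod1, Myog, Cdh15, Acta1, Des, Ckm and Chrna1. A site belonged to a gene's locus when it started inside a fixed window of mm9 around that gene. The windows were 105 to 120 kb long and covered 785 kb in all. They held 169 of the 120275 deposited sites, of which 54 were in the MyoD list, 31 in the NeuroD2 list, 23 in that of the chimera, 34 in that of WC and 27 in that of WCS. No annotation of mm9 was used here, so a site is given by its window and its coordinates and not by its distance from a gene.

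Chromatin immunoprecipitation and sequencing (ChIP-seq) had been done in P19 cells, a mouse embryonal carcinoma line, transduced with 1 of 5 proteins and moved to a neuronal medium after 48 h. All groups shared polybrene at 8 ug/ml, a medium change at 24 h and fixation in 1% formaldehyde for 11 min. The proteins were MyoD, NeuroD2, MD(ND2bHLH), which is MyoD carrying the bHLH domain of NeuroD2 and is called the chimera here, and 2 mutants of the chimera. MD(ND2bHLH)WC is shortened to WC below, and MD(ND2bHLH)WCS to WCS. The labels do not say what the letters of the mutants stand for. Each group had 2 libraries, made with MyoD antibodies 6196 and 6975, or with NeuroD2 antibodies 1165 and 1240 for NeuroD2, and 1 list of sites. The 2 libraries of untransduced P19 cells, made with antibodies 1240 and 6975, had no list that was analysed here, so no background in these cells can be set beside the sites. With 1 list per protein there was no spread between replicates, and differences between proteins were not tested. The antibody cannot be told apart from the protein where NeuroD2 is set beside the others.

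MyoD and NeuroD2 are basic helix-loop-helix (bHLH) transcription factors that pair with E proteins and bind the E-box, CANNTG. MyoD directs skeletal muscle differentiation and NeuroD2 neuronal differentiation. MyoD is known to favour E-boxes with the cores CAGCTG and CAGGTG, and NeuroD2 to favour CAGATG besides CAGCTG. The loci span the muscle programme. Myod1 and Myog encode the regulators MyoD and myogenin, Cdh15 encodes the adhesion protein M-cadherin of muscle precursors, and Acta1, Des and Ckm encode skeletal actin, desmin and the creatine kinase of muscle. Chrna1 encodes the alpha subunit of the muscle acetylcholine receptor.

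The proximal promoters are shown for the E-boxes that stand just before the starts of these genes. The 250 bases before the RefSeq start are given 5′ to 3′ on the strand of the gene for the 6 of 7 genes that matched, all except Myod1. The build is GRCm38.p6, whose coordinates must not be compared with the mm9 coordinates of the sites. Capitals mark each CANNTG.
Myog, chr1:134289754-134290003, strand +: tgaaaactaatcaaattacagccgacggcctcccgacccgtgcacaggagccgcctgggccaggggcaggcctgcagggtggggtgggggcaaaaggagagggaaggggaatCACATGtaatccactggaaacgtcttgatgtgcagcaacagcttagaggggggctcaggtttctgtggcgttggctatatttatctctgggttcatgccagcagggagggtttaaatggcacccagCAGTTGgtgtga
Cdh15, chr8:122848124-122848373, strand +: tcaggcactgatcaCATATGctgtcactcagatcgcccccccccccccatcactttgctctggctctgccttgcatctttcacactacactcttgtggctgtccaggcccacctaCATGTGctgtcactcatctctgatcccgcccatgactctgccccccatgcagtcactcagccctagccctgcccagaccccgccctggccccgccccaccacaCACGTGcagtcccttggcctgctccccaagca
Acta1, chr8:123894776-123895025, strand -: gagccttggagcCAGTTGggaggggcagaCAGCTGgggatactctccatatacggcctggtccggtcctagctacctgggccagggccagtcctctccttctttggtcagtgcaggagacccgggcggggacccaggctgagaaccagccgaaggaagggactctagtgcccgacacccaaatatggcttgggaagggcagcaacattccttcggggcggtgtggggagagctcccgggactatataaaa
Des, chr1:75360042-75360291, strand +: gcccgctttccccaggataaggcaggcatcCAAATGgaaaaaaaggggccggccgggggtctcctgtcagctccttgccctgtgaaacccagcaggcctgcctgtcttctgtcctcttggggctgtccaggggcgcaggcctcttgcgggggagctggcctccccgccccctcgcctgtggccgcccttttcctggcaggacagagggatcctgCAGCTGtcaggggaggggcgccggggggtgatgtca
Ckm, chr7:19410844-19411093, strand +: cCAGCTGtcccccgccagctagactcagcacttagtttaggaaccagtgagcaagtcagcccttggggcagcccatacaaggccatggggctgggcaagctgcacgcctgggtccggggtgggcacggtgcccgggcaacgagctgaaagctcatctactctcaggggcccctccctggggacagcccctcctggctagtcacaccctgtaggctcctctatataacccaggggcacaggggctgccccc
Chrna1, chr2:73580339-73580588, strand -: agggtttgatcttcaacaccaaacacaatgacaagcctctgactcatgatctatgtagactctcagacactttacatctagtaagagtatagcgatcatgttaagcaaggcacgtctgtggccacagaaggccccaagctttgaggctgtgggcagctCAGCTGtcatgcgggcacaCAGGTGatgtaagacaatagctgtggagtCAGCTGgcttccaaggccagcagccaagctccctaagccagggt

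All 6 promoters held an E-box, against 66.2% of the 32851 mouse promoters in the same table, each read over the same 250 bases. The number per promoter was 1 in Ckm, 2 in Myog, Acta1 and Des, and 3 in Cdh15 and Chrna1. The core CAGCTG stood in 4 of the 6 (Acta1, Des, Ckm and Chrna1) and in 13% of all promoters. CAGGTG, read on both strands, stood in Chrna1 only of the 6 and in 17.2% of all promoters. CAGATG, read on both strands, was in 0 of the 6 and in 14.4% of all promoters. None of the E-boxes of Cdh15 and Myog had one of these 3 cores. Letters known from Pbx (TGATTGA, both strands) were in 0 of the 6 and in 2.34% of promoters. Letters known from Meis (TGACAG, both strands) were in 3 of the 6, Cdh15, Des and Chrna1, and in 15.9% of all. A match in Des and the match in Chrna1 overlapped a CAGCTG. These are matches of letters, and no deposited site was placed on a promoter.

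MyoD had more sites than NeuroD2 at all 7 loci, and the lists of the chimeric proteins held fewer sites than that of MyoD in each window except that of Cdh15, where WCS equalled MyoD. The MyoD list had 12 sites in the Myod1 window, 9 at Myog, 4 at Cdh15, 8 at Acta1, 10 at Des, 7 at Ckm and 4 at Chrna1. The NeuroD2 list had 5, 6, 2, 6, 4, 5 and 3 sites in the same order. The chimera's list had 5, 5, 3, 1, 4, 2 and 3 sites, that of WC 6, 7, 3, 5, 6, 4 and 3, and that of WCS 7, 5, 4, 4, 1, 3 and 3. MyoD's numbers thus ran from 4 to 12, whereas NeuroD2's ran from 2 to 6. Of the autosomal bins of 100 kb that held a site of any list, 32.8% held more MyoD than NeuroD2 sites. Of the 2088 bins with 4 or more MyoD sites, 68.5% did. A share of 7 in 7 stands beside that second figure, since each window held at least 4 MyoD sites, as did 8.46% of all bins, which are slightly shorter than the windows. With the lists cut to their 14375 sites of highest score, the full length of the chimera list, MyoD still had more sites than NeuroD2 in 7 of 7 windows.

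**Figure D1:**
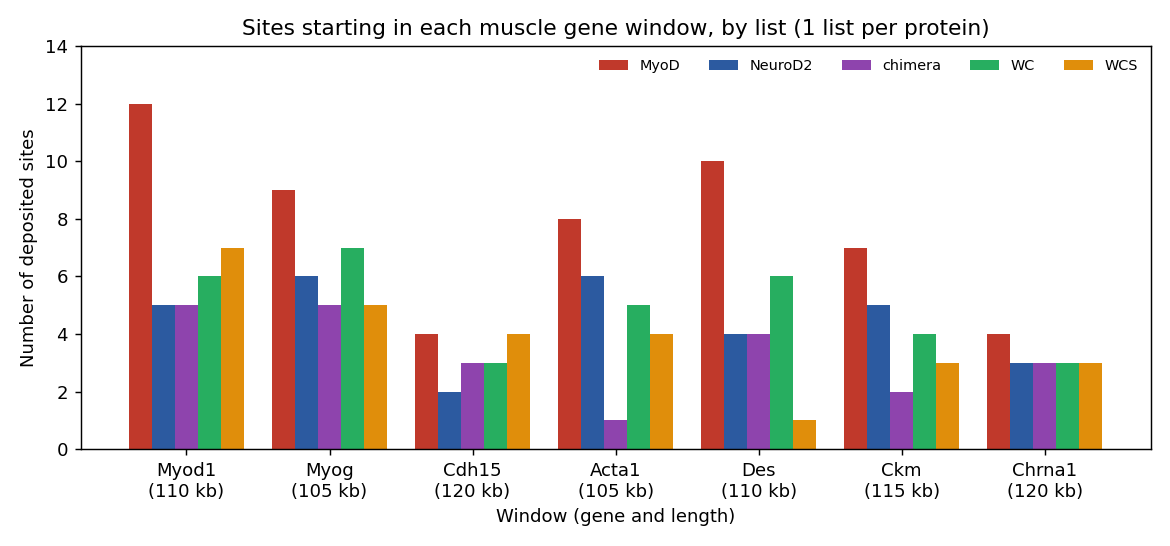
Number of deposited sites (vertical axis) that start in each of the 7 windows (horizontal axis, with the window length), as 1 bar for each list. The MyoD bar is the tallest in 6 windows and level with WCS at Cdh15, where both lists hold 4 sites.

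All 5 lists were denser in these windows than over the autosomes. MyoD had 6.88 sites per 100 kb there against a mean of 1.01, a ratio of 6.81 (95% Poisson interval 5.12 to 8.89). NeuroD2 had the lowest ratio, 3.16 (2.15 to 4.48), and the chimera the next highest after MyoD, 5.03 (3.19 to 7.55). WC stood at 4.01 (2.78 to 5.61), close to WCS at 3.84 (2.53 to 5.59). The intervals cover counting error alone and treat sites as independent, although neighbouring sites need not be. Those of MyoD, the chimera and both mutants overlapped, while NeuroD2's ended below MyoD's, and differences between lists were not tested. With sites within 500 bases joined, the windows held 44 MyoD, 30 NeuroD2, 23 chimera, 31 WC and 25 WCS sites. The autosomal means were taken over all 24686 bins of 100 kb, of which 15592 held a site of any list, so they include empty bins. Whether other stretches rich in genes have a like density was not tested. Sites were also counted near the window ends. In the outermost 5 kb inside the windows lay 5 MyoD, 3 NeuroD2, 1 chimera, 3 WC and 3 WCS sites. In the 5 kb beyond lay 1 MyoD site, with a score of 6.61 beside Acta1, and 0 of the other lists.

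Sites also differed in rank within their own lists. The authors gave each site a score, of unnamed unit, that starts just above 5 and is used here only to order the sites of 1 list. In the MyoD list the median score was 19.2 in the windows and 10.7 in the whole list, and 38 of the 54 sites lay above the list median. For NeuroD2 the medians were 14.3 and 10.5, with 18 of 31 sites above. The sites of the chimeric proteins lay near the middle of their lists. The chimera's medians were 8.76 and 9.49, with 11 of 23 sites above. WC had 9.53 and 10.5, with 16 of 34 above, and WCS 10.8 and 10.02, with 14 of 27 above. The scores of the chimera in the windows reached from 5.15 to 311.3, and MyoD's from 5.09 to an infinite value at Cdh15.

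**Figure D2:**
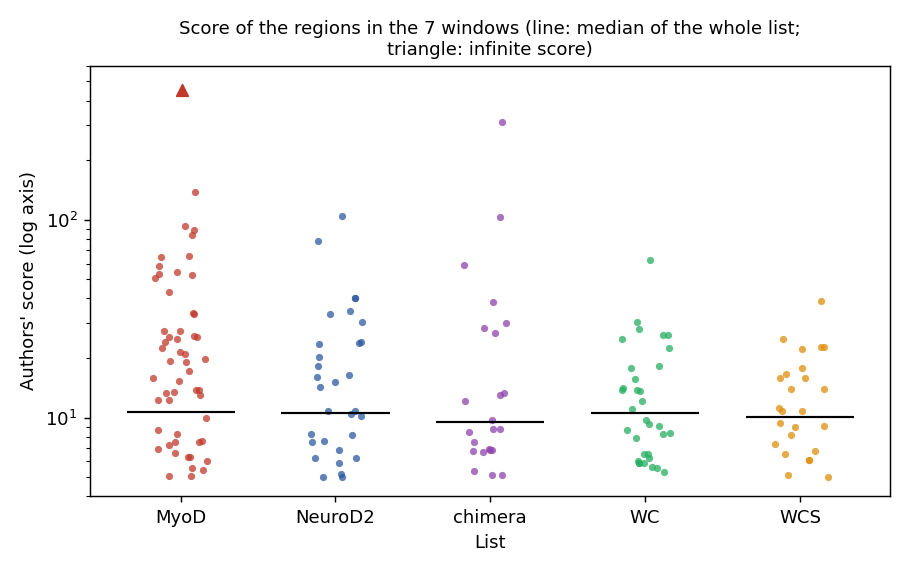
Authors' score (log axis) of each region that a list holds in the 7 windows, by list, where a point is the highest score of that list in the region, the line is the median of the whole list and the triangle is the infinite score. Most MyoD points lie above the line at 10.7, and a single chimera point stands at 311.3.

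In the following, sites of any lists that overlap are joined into a region, and a list holds a region where it has a site in it. The windows held 84 of the 60136 regions of the series. Of these 42 were in 1 list, 16 in 2, 16 in 3, 6 in 4 and 4 in all 5. MyoD alone held 32 regions or 38.1% of the 84, against 22.2% of all regions. NeuroD2 alone held 5, or 5.95% against 17.3%. NeuroD2, WC and WCS without the other lists held 11, or 13.1% against 12.6%. MyoD and the chimera without the others held 6, or 7.14% against 4.4%, and MyoD, the chimera and WC held 4, or 4.76% against 1.09%. The 4 regions of all 5 lists were 4.76% against 5.85%. These shares depend on the number of sites per list. The windows held 54 of the 24935 MyoD sites and 31 of the 31458 NeuroD2 sites. The part of these counts in the shares was not tested.

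At the Myod1 locus, whose coding neighbours in RefSeq (GRCm38.p6) are Otog and the potassium channel gene Kcnc1, the lists held 14 regions. Neither of the central regions, within 5 kb of the middle of the window, was in the NeuroD2 list. The first, chr7:53631789-53632768, had scores of 33.6 for MyoD, 8.47 for the chimera, 6.21 in the WC list and 9.43 in that of WCS. The second, chr7:53633389-53634387, had 24.2, 6.96, 15.6 and 10.8 in the same order. In the first, MyoD had 1 site of 980 bases and the chimera 1 of 769, WC had 2 of 279 and 235, and WCS had 3 of 308, 85 and 121. It was the only 1 of the 84 regions with several sites of the same list, a feature of 1.38% of all regions. MyoD, the chimera and both mutants without NeuroD2 held these 2 regions and no other of the 84, and 0.843% of all regions. They are the lists of the proteins built on MyoD, so those cells carry transduced Myod1 sequence. Whether reads from it entered these regions was not tested. The shares of MyoD-only sites held and the overlaps with MyoD alone are also given without them below. The counts per window, the densities and the scores include them.

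The NeuroD2 site of highest score at this locus lay elsewhere, at chr7:53673462-53674081, with a score of 78.1, and 2.96% of the NeuroD2 list scored higher. The region was also in the lists of the chimera (29.9), WC (62.6) and WCS (38.7), and it was the highest of each of these lists in the window. MyoD had no site there. MyoD alone held 6 regions of the window, with scores from 5.09 to 27.2.

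The Myog locus held 14 regions, and the neighbours of Myog in RefSeq are the long noncoding RNA Myoparr and the gene Ppfia4. The region of highest MyoD score, chr1:136141483-136142378, was in all 5 lists. Its scores were 137.3 for MyoD, 40.04 for NeuroD2, 28.5 for the chimera, 12.1 in the WC list and 15.8 in that of WCS. It was also the NeuroD2 site of highest score at this locus. In the middle of the window MyoD and the chimera were alone. They held chr1:136182048-136182740, with 53.4 for MyoD and 59.1 for the chimera, and chr1:136186029-136186711, with 12.96 and 9.75. MyoD alone held chr1:136186997-136187315, with 7.53. The 59.1 was the highest chimera score at Myog, and 3.01% of the chimera list scored higher. NeuroD2, WC and WCS held 4 regions together here that MyoD and the chimera lacked, the most of any window.

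At the Cdh15 locus the MyoD sites stood close together. The 7 regions included 4 of MyoD, which lay between 125371726 and 125375094 on chromosome 8, with scores of 88.5, 58.6, 6.63 and an infinite value. The last, chr8:125374456-125375094, was in all 5 lists. Its score led the chimera list, at 311.3, and shared the top of the MyoD list with the other infinite scores, of which that list has 11 in all. It ranked lower in the other lists, with scores of 16.4 for NeuroD2, 24.9 in the WC list and 13.9 in that of WCS, and 31.6% of the NeuroD2 list scored higher. The chimera also held the regions of MyoD scores 88.5 and 58.6, at 5.38 and 8.76, and NeuroD2, WC and WCS held neither. The highest NeuroD2 score at this locus was 18.2, at chr8:125330781-125331195, a region that WC (13.8) and WCS (16.6) shared. The coding neighbours of Cdh15 in RefSeq are Acsf3 and Ankrd11.

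At the Acta1 locus, with 16 regions, MyoD alone held 8. MyoD and NeuroD2 shared 0 of their 8 and 6 sites, where the whole lists share 25.7% of MyoD and 20.4% of NeuroD2 sites, and numbers this small do not set the locus apart. The highest, chr8:126419130-126419499, had a score of 54.1, and chr8:126419900-126420305 beside it had 27.2. NeuroD2's highest was chr8:126405476-126406005, with 104.6, which ranked 474 of 31458, and WC (26.2) and WCS (24.8) held it too. The same 3 lists held chr8:126413654-126414090, with 20.2 for NeuroD2, 30.4 for WC and 22.7 for WCS. The chimera had a single site in the window, chr8:126415137-126415456, with a score of 5.15 in no other list, and 98.6% of its list scored higher. The coding neighbours of Acta1 are Ccsap and Nup133, a subunit of the nuclear pore.

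At the Des locus, with 15 regions, the chimera and WC held both MyoD sites of highest score and WCS held neither. NeuroD2 lacked both sites. Of all MyoD sites that NeuroD2 lacks, the chimera holds 22.4%, WC 10.3% and WCS 7.06%, so the absence from WCS is near the background. The region of highest MyoD score, chr1:75341217-75341893, had 92.7 for MyoD, 103.6 for the chimera and 26.0 for WC, and NeuroD2 and WCS had no site in it. In the chimera list 0.710% of sites scored higher. MyoD, the chimera and WC also held chr1:75376440-75377085, with 50.7, 38.4 and 11.1. Both regions nearest the middle of the window, chr1:75355896-75356266 (15.2) and chr1:75356650-75357034 (13.8), were in the MyoD list alone. NeuroD2's highest region, chr1:75366696-75367310, had 30.5, and the chimera (6.85), WC (17.8) and WCS (22.7) held it. That was the only WCS site of the window. The coding neighbours of Des are Dnpep and Speg, a kinase of striated muscle.

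At the Ckm locus MyoD had 7 sites, of which NeuroD2 lacked 5. The chimeric proteins held 0 of these 5, where the whole class is held at 22.4% by the chimera, 10.3% by WC and 7.06% by WCS, so that 0 of 5 is near the background. The 5 had MyoD scores of 65.8, 43.2, 15.9, 12.3 and 5.99, and the site of 43.2, chr7:19997162-19997579, lay nearest the middle of the window. MyoD's highest region, chr7:19973735-19974694, was in all 5 lists, with scores of 84.1 for MyoD, 16.1 for NeuroD2, 13.02 for the chimera, 8.37 in the WC list and 8.99 in the WCS list. The other region of all 5 lists, chr7:19947361-19948270, had 25.5, 23.6, 26.7, 18.3 and 11.2 in the same order. The chimera had no other site in the window. NeuroD2 alone held its own highest region, chr7:19971045-19971662, with 40.1. The coding neighbours of Ckm are Klc3, a kinesin light chain, and the kinase gene Mark4.

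The Chrna1 locus had 8 regions. MyoD and NeuroD2 shared 0 of their 4 and 3 sites, too few to set beside the 25.7 and 20.4% of the whole lists. MyoD's highest, chr2:73418239-73418648, had a score of 25.7 and was in no other list, and the region before it, with 19.1, was shared with the chimera (6.70). In the middle of the window lay NeuroD2's highest region, chr2:73410484-73410938, with 34.5 for NeuroD2, 8.75 for the chimera, 22.5 in the WC list and 22.3 in that of WCS, and a NeuroD2 site of 5.89 at chr2:73411097-73411297 that no other list held. The coding neighbours of Chrna1 are Wipf1 and Chn1.

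**Figure D3:**
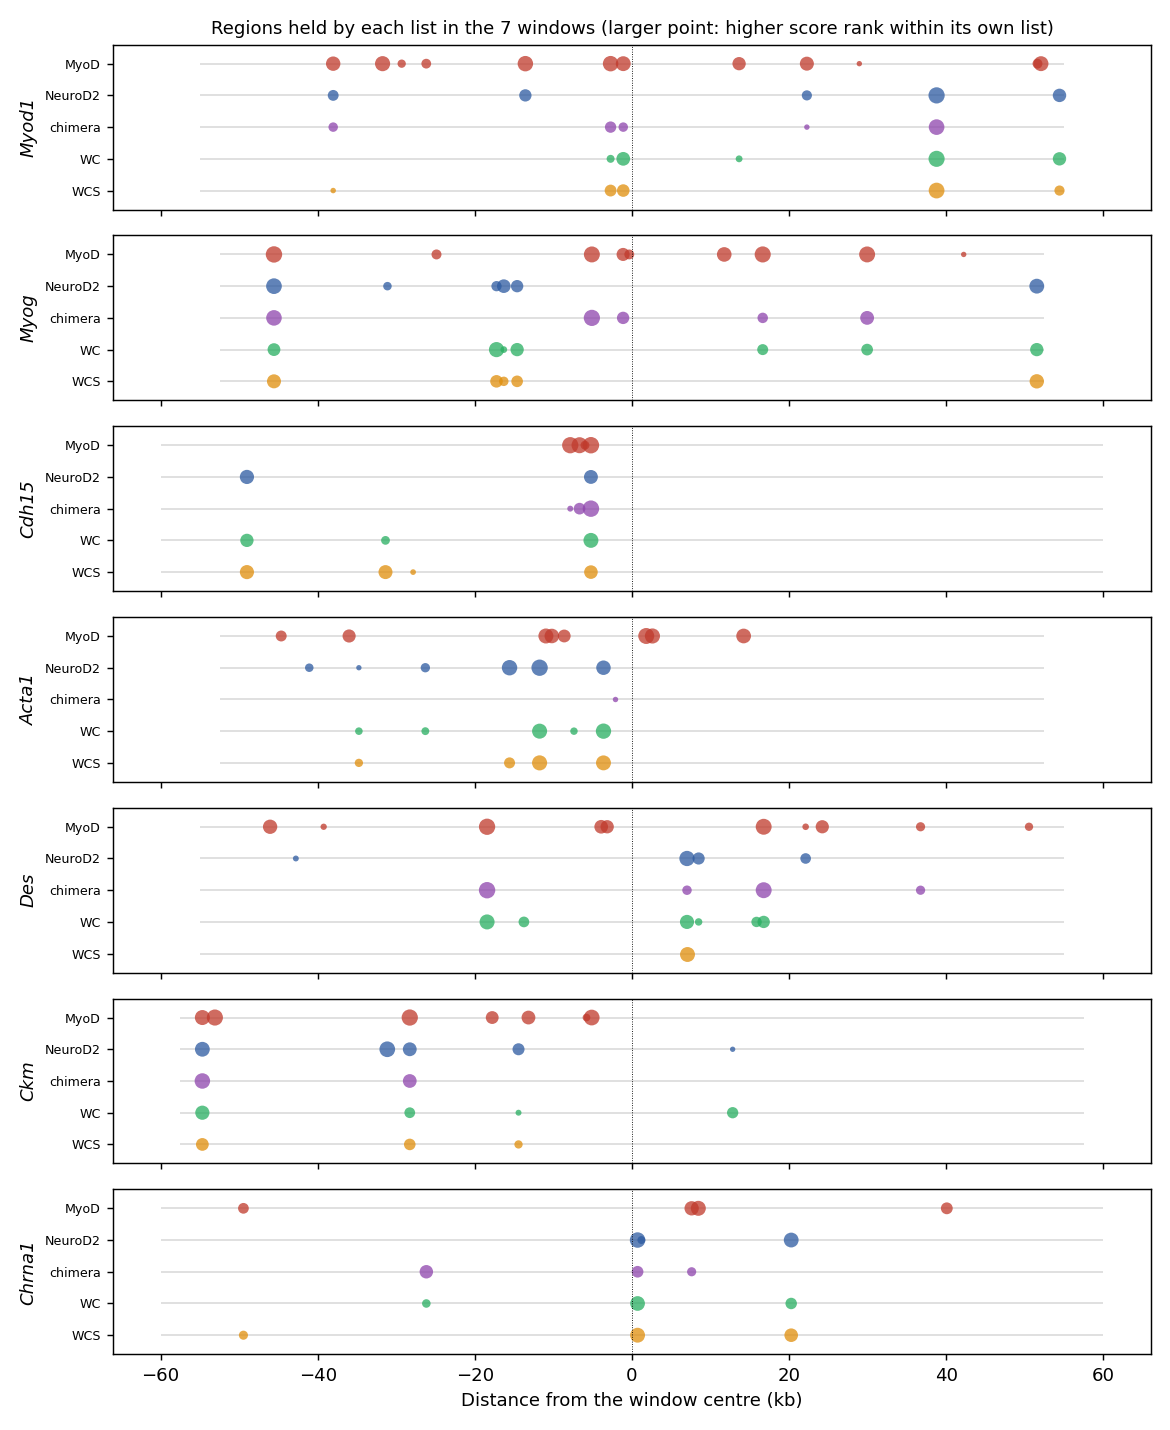
Regions held by each list (rows) in each window (panels) against the distance of the region from the centre of the window in kb, where a larger point is a higher rank of the score within its own list. In the Acta1 panel MyoD and NeuroD2 share none of the 16 regions, and in the Cdh15 panel the 4 MyoD points cluster just before the centre.

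Over the 7 windows, as over the whole lists, MyoD and NeuroD2 mostly held different sites. A site of one list was shared where it overlapped a site of the other by at least 1 base. NeuroD2 shared 8 of MyoD's 54 sites, or 14.8% (95% Clopper-Pearson interval 6.62 to 27.1%), against 25.7% of the whole MyoD list. MyoD in turn shared 8 of NeuroD2's 31 sites, or 25.8% (11.9 to 44.6%), against 20.4% of the whole list. The 8 shared sites lay at Myod1 (3), Ckm (2), Myog, Cdh15 and Des (1 each). This left 46 MyoD-only and 23 NeuroD2-only sites.

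The chimera held 12 of the 46 MyoD-only sites, or 26.1% (14.3 to 41.1%), against 22.4% of this class in the whole MyoD list. With the highest 50% of each list the share was 5 of 33, or 15.2%, and with lists of equal length 13 of 35, or 37.1%. Equal length left the chimera list whole. The shares over the whole lists were not computed in these 2 settings for any class, so neither value can be set beside the 22.4%. The 12 were 4 of 8 at Myog, 3 of 9 at Des, 2 of 3 at Cdh15, 2 of 9 at Myod1, 1 of 4 at Chrna1, 0 of 8 at Acta1 and 0 of 5 at Ckm. The median MyoD score was 51.5 for the 12 that the chimera held and 13.4 for the 34 that it did not. Above the median of the MyoD list the chimera held 11 of 31 sites (34.4% over the whole class) and at or below it 1 of 15 (12.6%). At Acta1 7 of the 8 MyoD-only sites lay above that median and the chimera held 0 of them. At Ckm it held 0 of 4 such sites, and at each of the other loci it held some. These are small numbers picked after the values were seen, and differences between loci were not tested. The chimera held 6 of the 8 shared sites (65.6% over the whole list) and 3 of the 23 NeuroD2-only sites (12.9%), which became 1 of 13 with the highest 50% and 3 of 12 with equal length.

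WC held 7 of the 46 MyoD-only sites, or 15.2% (6.34 to 28.9%), against 10.3% over the whole class, and WCS held 3, or 6.52% (1.37 to 17.9%), against 7.06%. WC's 7 lay at Myod1 (3), Myog (2) and Des (2), and WCS's 3 at Myod1 (2) and Chrna1 (1). Without the central Myod1 regions, the shares were 5 of 44 or 11.4% for WC, 1 of 44 or 2.27% for WCS, and 10 of 44 or 22.7% for the chimera. With the highest 50% of each list WC held 3 of 33, or 9.09%, and WCS 1 of 33, or 3.03%, and with equal length WC held 3 of 35, or 8.57%. The shares of the whole class in these 2 settings were not computed. At Cdh15, Acta1 and Ckm neither mutant held a MyoD-only site, out of 16 such sites. These loci are grouped by that absence, which is near the background of 10.3% for WC and 7.06% for WCS. Of the 23 NeuroD2-only sites WC held 17, or 73.9% (51.6 to 89.8%), against 52.3%, and WCS held 15, or 65.2% (42.7 to 83.6%), against 46.8%. Of the 8 shared sites WC held 4, against 81.9%, and WCS 5, against 77.3%. The intervals for 8 sites were wide, at 15.7 to 84.3% for WC and 24.5 to 91.5% for WCS. All 11 intervals of this comparison included the share of the whole list, so none of these 11 shares was separable from it at these numbers.

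**Figure D4:**
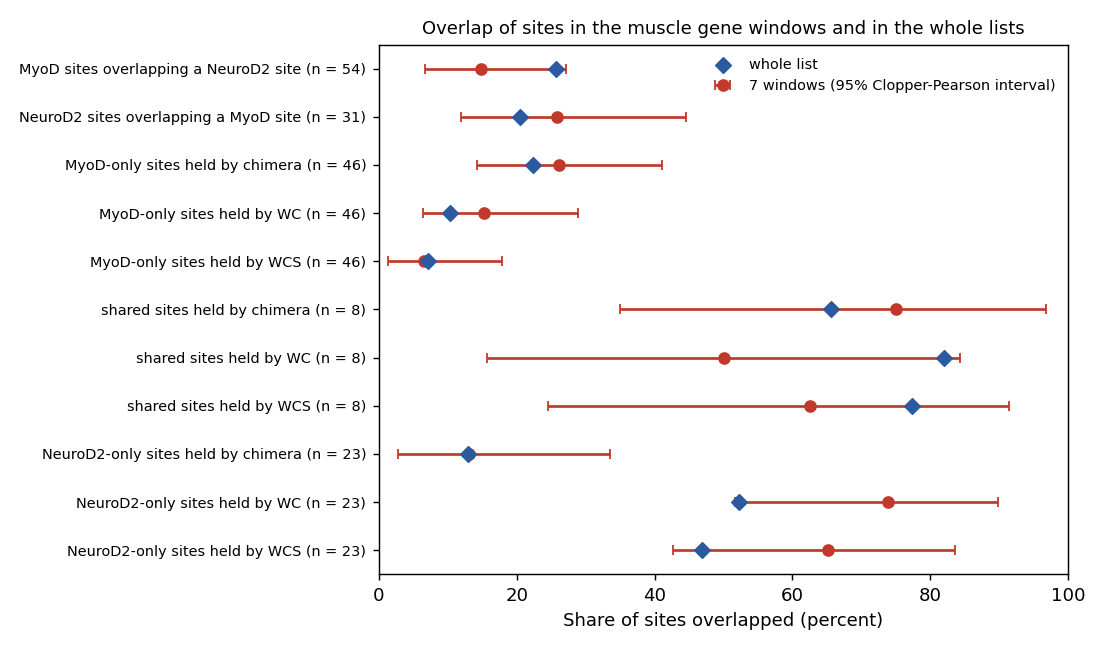
Share of sites overlapped (horizontal axis, percent) in the 7 windows (circles, with 95% Clopper-Pearson intervals and the number of sites) and in the whole list (diamonds), for 11 comparisons. Each interval takes in its diamond, and the NeuroD2-only rows of WC and WCS lie far to the right of the MyoD-only rows.

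Counted from the side of the chimeric proteins, 12 of the chimera's 23 sites overlapped MyoD alone, or 52.2% (30.6 to 73.2%), against 28.1% of its whole list. A further 6 overlapped both parents (29.1% of the whole list), 3 NeuroD2 alone (21.9%) and 2 neither (20.9%). Of WC's 34 sites 17 overlapped NeuroD2 alone (48%), 8 MyoD alone, or 23.5% (10.7 to 41.2%, against 7.08%), 4 both (19.4%) and 5 neither (25.5%). Of WCS's 27 sites 15 overlapped NeuroD2 alone (51.9%), 5 MyoD alone, or 18.5% (6.30 to 38.1%, against 5.92%), 5 both (22%) and 2 neither (20.2%). These 3 intervals for MyoD alone lay above the share of the whole list, but none did without the central Myod1 regions. The chimera then had 10 of 21, or 47.6% (25.7 to 70.2%), WC 5 of 31, or 16.1% (5.45 to 33.7%), and WCS 1 of 23, or 4.35% (0.110 to 21.9%). The shares themselves stayed above the 28.1% of the whole list for the chimera and the 7.08% for WC. That of WCS fell below its 5.92%. The windows held 54 MyoD and 31 NeuroD2 sites, and the part of this difference in the counts was not tested.

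The lists also differ in make-up. Chromosome X had 0 sites of MyoD and of the chimera, but 570 of NeuroD2, 403 of WC and 362 of WCS. The narrowest sites of the whole lists were 125 bases for MyoD and 200 for the chimera, against 53 to 54 bases in the other lists. In the windows the shortest site was 199 bases in the lists of MyoD and NeuroD2, 320 in the chimera's, 235 in WC's and 85 in WCS's. If the filters differed between those sets, their part cannot be told apart from that of the protein.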

How the data were processed

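ChIP-seq lists of 5 groups of P19 cells, each from 2 libraries with different antibodies, were analysed. The submitters' processing notes name CASAVA (1.8.2), BWA (0.7.5) and the build mm9. How peaks were called and filtered, and whether libraries were pooled, is not stated there, nor in the labels or headers. The deposited lists give a start, an end and a score for each site. The score has no named unit, and read depth is unknown, so scores rank sites within a list only.

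Starts were made 1-based, and a site was assigned to a window by its start. Overlap needed at least 1 base. Shares have exact Clopper-Pearson intervals, which cover counting error only and treat sites as independent. Background rates come from the whole lists, from all regions and from autosomal bins of 100 kb. Overlap counting was tested on simulated data first. The windows, lists and promoter motifs were chosen with earlier results of these data known. Regions were named by a rule: in each window those with the highest MyoD and the highest NeuroD2 score, those of all 5 lists, and those with an edge within 5 kb of the window centre. Others named in passing, and the neighbouring coding genes, were chosen after their values were seen. Promoters and gene order are from RefSeq, GRCm38.p6. Alternatives covered the overlap rule, list length, width, joining, the window limits and leaving out each window. Work was done in Python 3.11.15 with pandas 2.3.3, numpy 2.4.6 and scipy 1.17.1, and plots with matplotlib 3.10.9.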

Additional observations from a re-analysis of the deposited data

How the results depend on the processing

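No paired analysis was possible because each protein has 1 list and no result comes from a test. For the same reason no replicate could be left out. Of 243 values under 15 alternative settings, 220 stayed within 1.5 times the count or inside the interval of the share, and 23 did not. Lists of equal length gave 17 of these 23, beside 34 values that stayed. All 16 values stayed each time a window or the central Myod1 regions were left out. Such a removal can shift a total only little by its construction, so the 220 are no measure of robustness. With the highest 50% of each list, the windows held 18 NeuroD2, 11 chimera, 16 WC and 14 WCS sites. With lists of equal length they held 39 MyoD, 16 NeuroD2, 23 chimera, 16 WC and 18 WCS sites, and the chimera and WCS each held 4 of 4 shared sites, or 100%. Equal length left NeuroD2 2 sites at Myod1, 3 at Myog, 3 at Acta1, 1 at Des and 3 at Ckm. It left WC 3 sites at Myod1, 4 at Myog, 2 at Acta1, 3 at Des, 1 at Ckm and 1 at Chrna1, WCS 3 at Myod1, and MyoD 6 at Des. Both settings lower counts by their own construction, except that equal length leaves the chimera list, the shortest, at its full 14375 sites. With the highest 50% the chimera held 15.2% of MyoD-only sites, WC 9.09% and WCS 3.03%, and with equal length 37.1, 8.57 and 5.71%. The chimera's NeuroD2-only share was 7.69 and 25% in the same 2 settings. Windows narrowed by 25 kb at each end held 20 NeuroD2 sites, and WCS held 2 of the 5 shared sites in them, or 40%. Where centres had to lie within 100 bases, WC held 3 of 48 MyoD-only sites, or 6.25%, and the cause was not tested. Leaving out 1 window at a time, or the central Myod1 regions, an alternative chosen after seeing the data, gave 42 to 52 MyoD and 25 to 31 NeuroD2 sites. The share of MyoD-only sites held then ran from 21.1 to 31.6% in the chimera list. In the WC list it ran from 10.8 to 18.4%, and in the WCS list from 2.27 to 8.11%. The share of shared sites that WC held, 50%, ran from 33.3 to 80%, the latter without the Myod1 window. The small numbers of sites, 8 in the shared class, limit the precision of every share.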
